A study of Mus musculus with 9 samples.

Results

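The genes described here encode the proteins of the cytosolic ribosome in splenic plasmacytoid dendritic cells (pDCs) of the mouse. They are the 82 of 52550 listed genes whose symbols follow the pattern of large subunit proteins (Rpl with a number, or Rplp0 to Rplp2) or small subunit proteins (Rps with a number, or Rpsa), with an optional final a, l, x or y. Of these, 50 are named for the large (60S) subunit and 32 for the small (40S) subunit. The rule used the symbol and not the level, but it was chosen with earlier results of these data known.

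The experiment comprised 9 mRNA-Seq samples, 3 from each of the genotypes G/G (WT), G/A and A/A of *Ncf1*, which encodes a cytosolic subunit of the phagocyte NADPH oxidase. The A allele is a knock-in made with CRISPR/Cas9, in which a G-to-A change replaces an arginine with a histidine. Founder mice were crossed with C57BL/6J mice, the samples were labelled C57BL/6, and the methods state that female mice at 10 to 12 weeks of age were used. The pDCs of all 3 groups were sorted from the spleen as CD11c-intermediate SiglecH+ PDCA1+ cells and cultured for 12 hours with R848, a ligand of TLR7 and TLR8, so the series held no unstimulated cells. The sources used here do not state whether cells of several mice were pooled. The library of A/A replicate 1 was analysed, and the other 8 were not analysed here. Each level below is therefore 1 value without a replicate, no genotype was compared, and no test was made.

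Each ribosome is built from a large subunit, which forms peptide bonds and releases the growing chain through a tunnel, and a small subunit, which reads the mRNA. Most of their proteins are needed in 1 copy for each ribosome, and each is made from its own gene. The mRNAs of these genes typically begin with a tract of pyrimidines, the 5′ terminal oligopyrimidine (TOP) motif, through which growth signals control their translation. Mammalian genomes also hold many processed pseudogenes of ribosomal protein genes, which resemble their mRNAs closely.

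The library held 31408298 reads on 17664 genes. All 10 pDC markers had reads, with a median of 458 reads per 1000000 reads of the library (CPM) and a range from 65.6 CPM for *Cox6a2* to 2967 CPM for *Irf8*. *Ncf1* had 33881 reads, or 1079 CPM, although these values do not separate its alleles. The 3 T cell markers were all at 0, and the medians were 2.32 CPM for 3 B cell, 9.62 CPM for 3 neutrophil (with *Ly6g* at 0), 25.1 CPM for 3 macrophage and 37.8 CPM for 4 conventional DC markers. Of these last, *Zbtb46* had 106 CPM, *Clec9a* 73.9 CPM and *Xcr1* 1.72 CPM, and *Cd209a* was at 0. Of 3 erythroid markers, *Hba-a1* had 2.83 CPM and the others were at 0. The library went against the stated sex, because Y-linked genes had reads, from 19.0 CPM for *Uty* to 102 CPM for *Ddx3y*, and *Xist* was listed at 0. The part of other cells in the levels below was not tested. In bulk RNA, fewer cells of a type and less RNA per cell cannot be told apart.

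The start of the transcript is where these genes share a known sequence feature, so the surroundings of 8 RefSeq start sites are shown first. Each window runs from 15 bases before the annotated start to 14 bases after its first base on the GRCm38.p6 assembly, and capitals mark the unbroken run of C and T that touches or lies nearest to the start. The first 6 were shown because this run has at least 8 bases, and *Rplp0* and *Rpl12*, a highly and a sparsely represented stalk gene, because theirs is shorter.
Rpl35, chr2:39005117-39005146, minus strand: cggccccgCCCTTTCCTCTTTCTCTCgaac
Rps6, chr4:86857353-86857382, minus strand: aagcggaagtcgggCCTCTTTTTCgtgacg
Rpl7a, chr2:26910792-26910821, plus strand: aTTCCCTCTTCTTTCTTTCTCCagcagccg
Rps9, chr7:3704026-3704055, plus strand: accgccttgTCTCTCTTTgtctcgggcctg
Rpl38, chr11:114668565-114668594, plus strand: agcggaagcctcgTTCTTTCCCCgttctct
Rpl28, chr7:4792950-4792979, plus strand: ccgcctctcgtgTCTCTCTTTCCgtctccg
Rplp0, chr5:115559452-115559481, plus strand: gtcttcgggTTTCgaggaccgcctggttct
Rpl12, chr2:32961697-32961726, plus strand: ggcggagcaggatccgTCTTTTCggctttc

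RefSeq held 72 promoters for 60 of the 82 genes, each from 250 bases before to 50 bases after a start. A run of at least 8 C or T bases touched the start (5 bases to either side, transcribed strand) in 31.9% of the 72, compared with 9.38% of all 32851 promoters, and the median run was 4.5 bases against 3 bases. This measure was chosen after the promoters had been seen. CTTTCC or CTTTTC, short pyrimidine words, lay between −10 and +25 on the transcribed strand in 19.4% of the ribosomal protein promoters and 2.68% of all promoters. CCGGAAG, the core recognised by ETS factors, lay between −100 and +50 on either strand in 27.8% and 6.59%. AAGATGGC, the core of the YY1 motif, lay in the same range in 8.33% and 1.74%. TATAAA or TTTATA lay between −40 and −20 in none of the 72 promoters and in 2.31% of all. These motifs can overlap the pyrimidine run, and matches describe letters, not binding.

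The ribosomal protein genes took up a small share of this library as a group, yet stood well above the typical gene one by one. The 82 genes had 252269 reads together, which is 0.803% of all reads, or 8032 CPM. *Actb*, which encodes β-actin, alone had 16509 CPM, or 2.06 times as many reads as the whole group. No ribosomal protein gene was among the 100 genes with the most reads, and 3 were among the first 500.

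Of the 82 genes, 80 had reads and 77 had at least 100 reads. *Rpl10l* and *Rpl39l* had none, *Rpl3l* had 5 reads, and *Rpl6l* and *Rps4l*, both annotated as pseudogenes, had 46 and 64 reads. The median gene had 75.7 CPM, compared with 6.34 CPM over all genes with reads and 17.9 CPM over the protein-coding ones. The 10th and 90th percentiles of the group were 12.6 and 179 CPM. At least 100 CPM were reached by 27 of the 82 genes (32.9%), compared with 10.2% of all genes with reads and 14.4% of the protein-coding ones. Reads were unevenly spread within the group, because the 5 genes with the most reads held 25.3% of them.

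To compare genes with one another, CPM was divided by the length of the principal annotated transcript in kilobases. On that scale the median gene was at 89.2 CPM per kilobase, at the 92.9th percentile of the protein-coding genes with reads, whose own median was 6.09. Of the 82 genes, 76 lay above that latter value. At least 100 CPM per kilobase were reached by 39 of the 82 (47.6%), compared with 6.31% of 12172 protein-coding genes with reads. Within the group, 46 genes (56.1%) were within 2-fold of its median, 29 of the large and 17 of the small subunit. The plot of the genes by subunit shows a steep middle and a long lower tail.

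**Figure D1:**
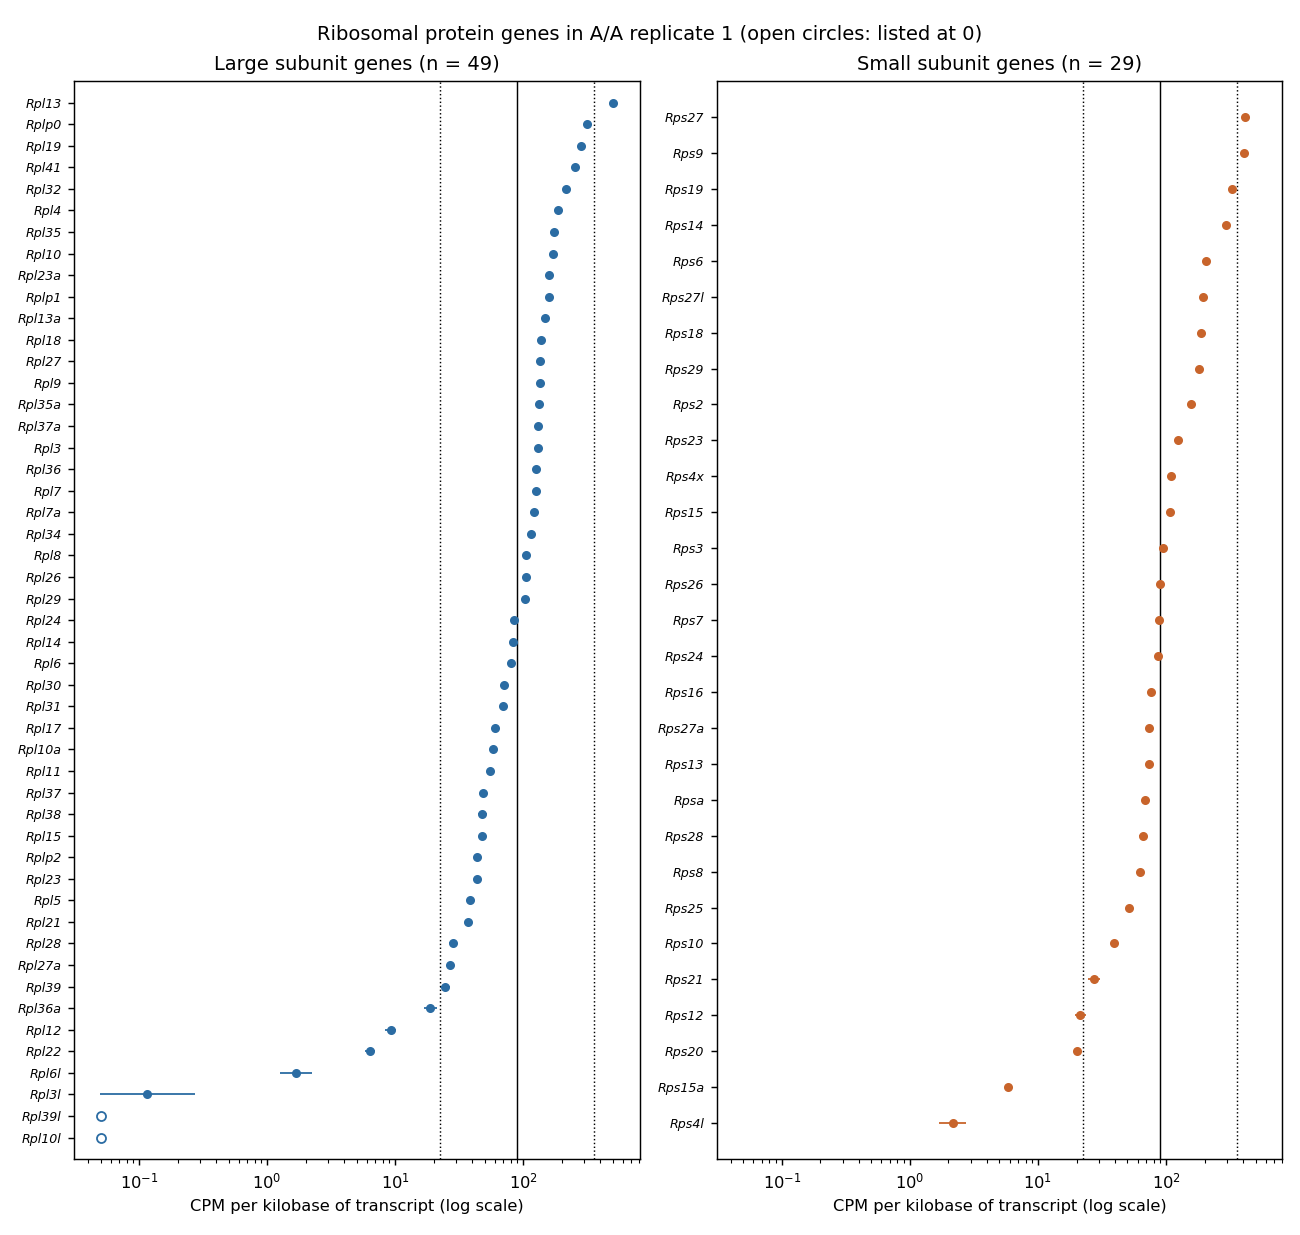
Levels of 78 of the 82 ribosomal protein genes in A/A replicate 1, in CPM per kilobase of transcript on a log axis, for the large (left) and small (right) subunit. Points are values of 1 library, bars are 95% counting intervals, the solid line is the median of all 82 genes (89.2) and dotted lines are 4-fold below and above it. *Rpl39l* and *Rpl10l* were listed at 0 and are drawn as open circles at the left edge.

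The large and the small subunit genes lay at much the same level, and which was higher depended on the length used. The 50 large subunit genes had 155542 reads and the 32 small subunit genes 96727 reads, or 61.7% and 38.3% of the group's reads. Per kilobase of transcript the medians were 94.6 for large and 89.2 for small subunit genes, a log2 difference (large minus small) of 0.09. Per kilobase of coding sequence they were 143 and 178, a difference of −0.32, and per kilobase of all annotated exons 35.8 and 41.8, a difference of −0.22. Without any division by length they were 72.8 and 84.4 CPM, a difference of −0.21.

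The order of the subunits also turned with the choice of genes. Without the 45 genes that shared more than 50% of their 50-base windows with other genes, 37 genes remained. They included the pseudogenes *Rpl6l* and *Rps4l*, whose share was not measured, and *Rpl3l*, *Rpl10l* and *Rpl39l*, which had almost no reads. Their medians per kilobase of transcript were 43.5 for 21 large and 92.3 for 16 small subunit genes, a log2 difference of −1.09. With 8 further genes, listed as ribosomal proteins under symbols that do not follow the pattern, the difference was −0.08. The ranges overlapped almost entirely, from 0 to 502 (*Rpl13*) for the large subunit and from 2.16 (*Rps4l*) to 413 (*Rps27*) for the small. The plot of both subunits on 4 scales shows the medians crossing while the points overlap.

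**Figure D2:**
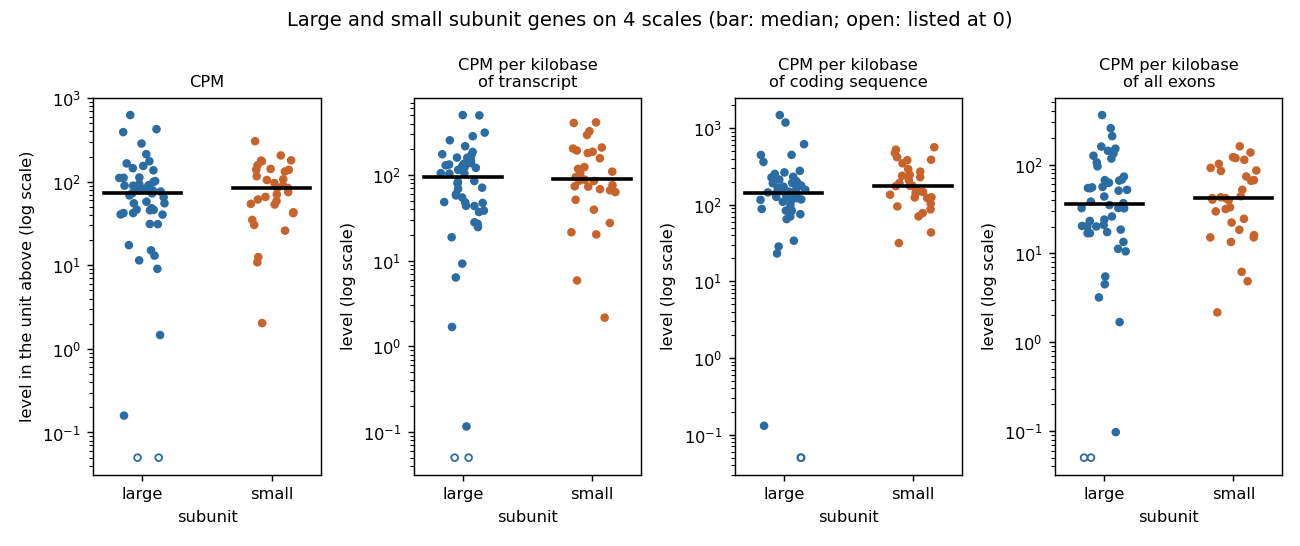
Levels of 50 large and 32 small subunit genes in A/A replicate 1 on 4 scales, each on a log axis: CPM, and CPM per kilobase of principal transcript, of coding sequence (49 and 31 genes) and of all exons. Each point is 1 gene, bars are medians and open circles are genes listed at 0. The median was higher for the large subunit on the transcript scale (94.6 and 89.2) and higher for the small subunit on the other 3.

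*Rpl13* had the highest level of the large subunit, 502 CPM per kilobase (95% interval, 493 to 511). This gene, which encodes a protein of the 60S subunit, lies at chr8:123102350-123105244 and had 12305 reads on a transcript of 780 bases. *Rplp0* (313), *Rpl19* (284) and *Rpl41* (255) were also high, and differed from *Rpl13* and from one another beyond counting error. Intervals of this kind cover counting error only, since PCR copies of a molecule count as separate reads.

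The highest small subunit genes were *Rps27* with 413 CPM per kilobase (401 to 425) and *Rps9* with 407 (399 to 415), which again could not be told apart. *Rps19* (326) and *Rps14* (294) were also high, and differed from those genes and from each other beyond counting error. *Rps27* lies at chr3:90212522-90213651 and *Rps9* at chr7:3703993-3706897. Their ranks differ without the division by length, because *Rps9* had 305 CPM and *Rps27*, with a transcript of 345 bases, 142 CPM.

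By role, the genes of the ribosomal stalk lay at widely different levels. The stalk recruits the GTPase factors of translation, and its core protein *Rplp0* had 425 CPM, or 313 CPM per kilobase. *Rplp1* and *Rplp2*, which encode the acidic proteins that sit on *Rplp0* as dimers, had 159 and 43.7 CPM per kilobase. *Rpl12*, which encodes the protein at the base of the stalk, had 11.5 CPM, or 9.23 CPM per kilobase, from 360 reads. The stalk genes therefore included both one of the highest and one of the lowest read numbers of the group. The 2 proteins that carry the 5S rRNA into the 60S subunit and can bind Mdm2 were closer, with *Rpl11* at 54.7 and *Rpl5* at 38.5 CPM per kilobase.

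The 9 genes of the exit tunnel and its mouth, where the growing chain leaves the ribosome, had a median of 105 CPM per kilobase. Among genes whose proteins line the tunnel, *Rpl4* was at 186, *Rpl17* at 59.9 and *Rpl39* at 24.7 CPM per kilobase. Around the mouth, *Rpl19* (284), *Rpl35* (175) and *Rpl23a* (160) were the highest, *Rpl26* (105) and *Rpl31* (69.1) lay near the median gene, and *Rpl22* (6.36) was far below. *Rpl19* also contributes to the bridges between the subunits, together with *Rpl41* at 255 and *Rpl24* at 85.2 CPM per kilobase. *Rpl41* encodes one of the shortest known proteins, and on its coding sequence of 75 bases its level was 1486 CPM per kilobase.

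On the small subunit, the 4 genes of the mRNA entry site ranged from 39.4 for *Rps10* to 407 CPM per kilobase for *Rps9*, with *Rps2* at 157 and *Rps3* at 94.5. Of the mRNA exit and the decoding centre, *Rps14* stood at 294 CPM per kilobase, above *Rps23* (124), *Rps15* (107), *Rps26* (90.05) and *Rps28* (66.3). *Rps6*, the classical substrate of S6 kinase downstream of mTOR, had 179 CPM and 204 CPM per kilobase. *Rps27a*, which is translated as a fusion with ubiquitin, had 58.5 CPM and 73.9 CPM per kilobase. Listed were 5 of the genes in which loss of 1 copy causes Diamond-Blackfan anaemia in humans. They included *Rps19* at 326 CPM per kilobase, *Rpl35a* at 133, *Rps7* at 88.3 and *Rps24* at 86.1. All members of these role lists had reads, and none was a paralog.

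More than 4-fold from the median gene per kilobase of transcript were 15 genes, 11 low and 4 high. The high ones included *Rpl13*, *Rps27* and *Rps9*. Just inside the upper limit were *Rps19*, at 3.65 times the median, and *Rplp0*, at 3.51 times, and just inside the lower limit was *Rpl39*, at 0.28 times. *Rps21*, the fifth lowest small subunit gene, had 27.6 CPM per kilobase. Among the low ones were 5 genes annotated as pseudogenes or named as paralogs with a final l (*Rpl10l*, *Rpl39l*, *Rpl3l*, *Rpl6l* and *Rps4l*). The other 6 low ones, *Rpl12*, *Rpl22*, *Rpl36a*, *Rps12*, *Rps15a* and *Rps20*, encode standard ribosomal proteins.

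The low level of *Rps15a* and *Rps20* came with a long annotated transcript. *Rps15a* had 955 reads on 5179 bases (5.87 CPM per kilobase), of which 390 are coding, and *Rps20* had 2359 reads on 3706 bases (20.3 CPM per kilobase), of which 357 are coding. Per kilobase of coding sequence they stood at 78.0 and 210, within 4-fold of the median of 149. *Rpl12*, *Rpl22*, *Rpl36a* and *Rps12* were more than 4-fold low on all 3 lengths, as were *Rpl10l*, *Rpl39l* and *Rpl3l*. On coding sequence these 4 standard genes had 23.2, 34.0, 28.5 and 31.7 CPM per kilobase, from 360, 410, 285 and 394 reads.

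*Rpl22* encodes a protein of the 60S surface known for its role in lymphocyte development, and *Rps12* encodes a small subunit protein. *Rpl22* lies at chr4:152325742-152334071 and *Rps12* at chr10:23785183-23787275. *Rpl12* lies at chr2:32961559-32965345 and *Rpl36a* at chrX:134585654-134588062. Of the 50-base windows in their transcripts, 5.19% of those of *Rpl22*, 49.4% of *Rpl12*, 83.6% of *Rps12* and 85.5% of *Rpl36a* also occurred in another gene. The low genes thus included both mostly unshared and mostly shared sequence.

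Several ribosomal proteins have a second gene, a paralog that is used in particular tissues. The stretches below show how far 2 such pairs can be separated by sequence, with capitals marking the positions that differ within a pair over the first 60 coding bases of the GENCODE M21 transcripts.
Rpl39: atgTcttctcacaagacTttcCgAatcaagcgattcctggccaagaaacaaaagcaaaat
Rpl39l: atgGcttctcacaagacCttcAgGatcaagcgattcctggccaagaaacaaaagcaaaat
Rps27: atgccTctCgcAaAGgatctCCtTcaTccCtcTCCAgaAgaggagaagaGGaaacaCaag
Rps27l: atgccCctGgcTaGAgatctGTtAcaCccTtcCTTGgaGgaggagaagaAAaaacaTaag

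*Rpl39* and *Rpl39l* differ at 4 of these 60 bases and at 23 of 153 coding bases, and *Rps27* and *Rps27l* at 18 of 60 and 60 of 252. Paralogs known mainly from muscle or testis had almost no reads in A/A pDCs. *Rpl3l*, the striated muscle paralog of *Rpl3*, had 5 reads against 5518, and its ratio per kilobase was 0.00089 (0.00038 to 0.00209). *Rpl10l* and *Rpl39l*, the testis paralogs, had 0 reads against 4303 for *Rpl10* and 474 for *Rpl39*. With a floor of 3 reads for the library in place of 0, *Rpl10* was 1836-fold and *Rpl39* 208-fold higher per kilobase. These folds are not lower bounds. The intervals of the ratios per kilobase reached up to 0.000697 for *Rpl10l* to *Rpl10* and 0.00616 for *Rpl39l* to *Rpl39*, which allows smaller folds. *Rps4l* had 64 reads against 3359 for the X-linked *Rps4x*, a ratio of 0.0197 (0.0154 to 0.0252).

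Other paralogs were well represented. *Rps27l*, which encodes a ribosomal protein induced by p53, had 3031 reads against 4471 for *Rps27*, or 40.4% of the reads of the pair. Its ratio to *Rps27* was 0.469 (0.448 to 0.491) per kilobase of transcript, 0.678 per kilobase of coding sequence and 0.867 per kilobase of all exons. Of the 50-base windows, 98.6% of those of *Rps27* and 22.4% of those of *Rps27l* occurred in other genes. How reads from such windows were counted is not given, and the interval does not cover it. *Rpl7l1* was at 0.327 of *Rpl7* per kilobase of transcript (0.312 to 0.342) and at 0.803 per kilobase of coding sequence. Both paralogs thus lay below their namesakes on every length, by an amount that varied with it.

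In the pair of *Rpl36al* and *Rpl36a* the order was the opposite, with the paralog the higher of the pair. *Rpl36al* had 1743 reads (55.5 CPM) and *Rpl36a* 285 reads (9.07 CPM), a ratio of 5.62 per kilobase of transcript (4.96 to 6.36), 6.12 per kilobase of coding sequence and 7.48 per kilobase of all exons. Their coding sequences are 87.7% identical, and 63.3% and 85.5% of their 50-base windows occur in other genes. The pseudogenes elsewhere that shared a 50-base window with the *Rpl36a* transcript had 20 reads in all. A pseudogene named for *Rpl36a*, *Rpl36a-ps3*, had 161 reads and so was not counted among them. The part of pseudogenes in the low level of *Rpl36a* was not tested. *Rpl22l1* and *Rpl22* had 328 and 410 reads. Their ratio was 2.97 (2.57 to 3.44) per kilobase of transcript but 0.839 per kilobase of coding sequence, so their order depends on the length. The plot of the 8 pairs shows the 4 paralogs far below their namesakes apart from the rest.

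**Figure D3:**
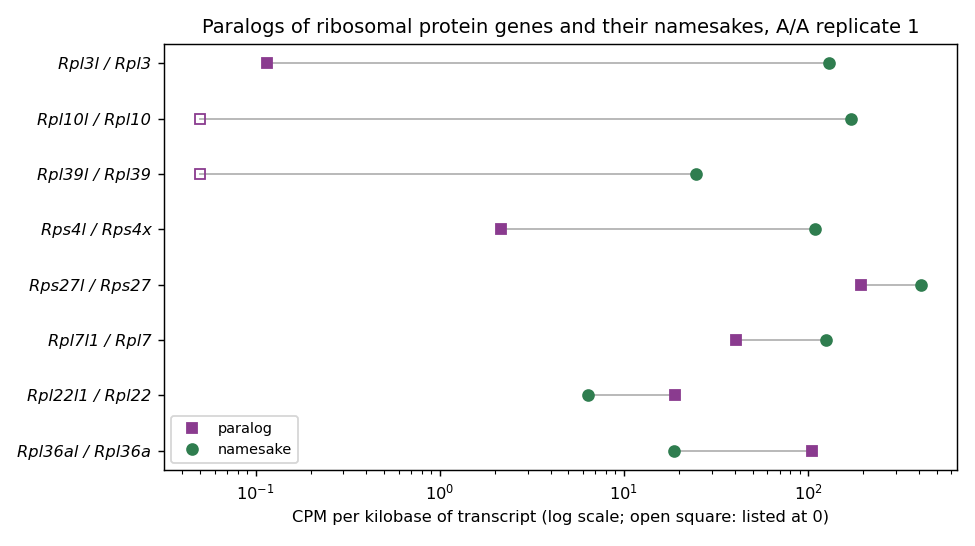
CPM per kilobase of transcript, on a log axis, of 8 paralogs (squares) and their namesakes (circles) in A/A replicate 1, joined by a line. *Rpl3l*, *Rpl10l*, *Rpl39l* and *Rps4l* lay far below their namesakes (open squares are listed at 0), *Rps27l* and *Rpl7l1* within about one decade below, and *Rpl22l1* and *Rpl36al* above.

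Shared sequence was measured in protein-coding transcripts, which 80 of the 82 genes had. *Rpl6l* and *Rps4l*, annotated as pseudogenes, were left out. The median share of 50-base windows that also occurred in transcripts of another gene was 53.2%, from 0%, as for *Rpl3l* and *Rpl39l*, to 98.6% for *Rps27*. More than 50% of the windows were shared in 45 of the 80 genes (56.2%), compared with 6.42% of the protein-coding genes with reads, whose median share was 0%. Matches on either strand counted, also in genes that overlap at the same place, such as *Arpc5l* and *Wdr38* at *Rpl35*. The share therefore includes such overlap as well as copies elsewhere. Over windows of 150 bases, the length of the sequencing reads, the median was 27.5% and 21 genes had over 50% shared. A read from such a window fits more than 1 gene, and how such reads were counted is not given in the sources used here.

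The genes with mostly shared sequence had the higher median on the transcript scale. These 45 genes had a median of 115 CPM per kilobase of transcript and the other 35 had 76.2. The 35 included the paralogs *Rpl3l*, *Rpl10l* and *Rpl39l*, with 5, 0 and 0 reads, which lower that median. Over the 80 genes, Spearman's rho between level and shared percentage was 0.27 per kilobase of transcript and 0.06 per kilobase of coding sequence. Level per kilobase of transcript and transcript length had a rho of −0.33, and the coding equivalents −0.02. These genes share 1 library, and transcript length enters the level itself, so the values are descriptions.

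**Figure D4:**
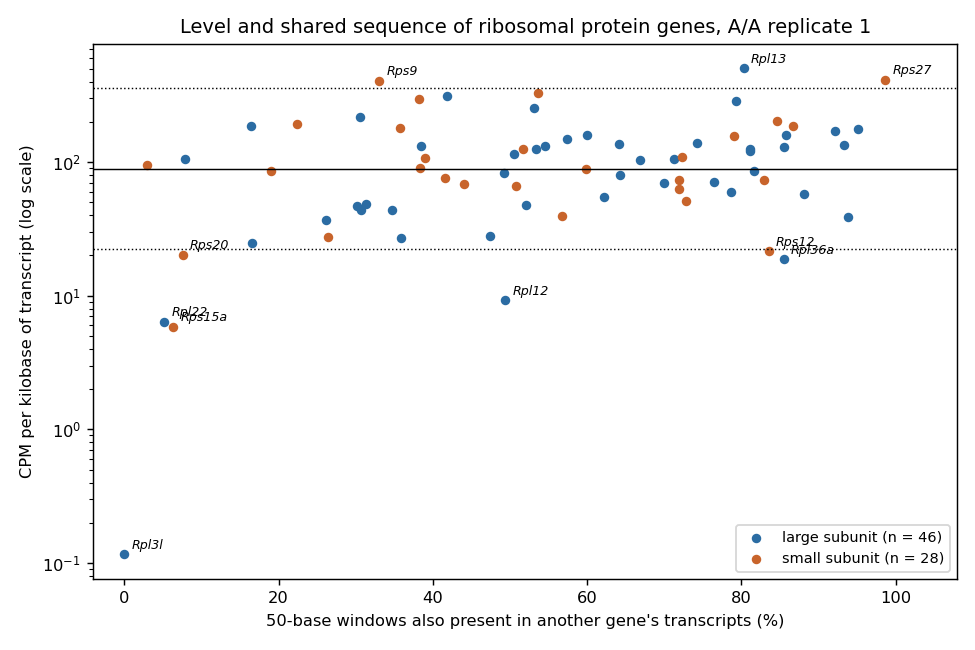
Level in CPM per kilobase of transcript (log axis) against the percentage of 50-base windows shared with another gene, for 74 of the 78 ribosomal protein genes with reads and a measured share in A/A replicate 1. The solid line is the median of all 82 genes, dotted lines are 4-fold from it, and genes beyond them are named. Low genes occur from 0% (*Rpl3l*) to 85.5% (*Rpl36a*) shared sequence.

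Reads were also listed on the pseudogenes. At least 1 window was shared with 1085 pseudogenes elsewhere in the genome, of which 528 had reads, 9216 in all or 3.65% of the reads of the 82 genes. The 276 pseudogenes named for a ribosomal protein had 4074 reads, or 1.61%, and *Rpl15-ps3* with 291 and *Rps6-ps4* with 270 had the most. For most genes this was little, but the pseudogenes sharing sequence with *Rpl15* had 28.9% as many reads as *Rpl15* itself, those of *Rpl17* 19.5%, of *Rpl29* 15.4% and of *Rps2* 15.1%. Over 10% was reached for 8 genes. *Rpl7a* shared sequence with the most pseudogenes, 120.

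Exons of other genes overlapped some members. On the opposite strand, more than 10% of the exons was overlapped in 10 genes, led by *Rpl35* (68.3%, by *Arpc5l* and *Wdr38*), *Rpl23a* (55.4%, by *Tlcd1*) and *Rps25* (52.2%, by *Ccdc84* and *Trappc4*). On the same strand this held for 4 genes, *Rpl24* (71.5%), *Rpl13a* (59.3%), *Rps10* (53.6%) and *Rpl19* (10.7%). Whether counting used strand is not given in the sources used here, so reads of overlapping genes cannot be told apart and the levels of these genes are uncertain.

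The members lie on 19 chromosomes, with 14 on chromosome 7. Only 2 pairs of them were within 10000 bases of each other. Of these, *Rps2* and *Rpl3l*, both on the plus strand of chromosome 17 and 5890 bases apart, had 157 and 0.116 CPM per kilobase, so close neighbours could differ by over 3 orders of magnitude.

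Set beside other genes of translation, the 82 ribosomal protein genes had the highest median per kilobase of transcript, 89.2. Their median of 75.7 CPM was slightly below those of the other-named ribosomal proteins and the genes with TOP mRNAs. The 8 genes listed as ribosomal proteins under other names had a median of 79.7 CPM per kilobase and 78.1 CPM, close to the 82. Of these 8, *Rpl37rt*, with 1.34 CPM, had no annotated protein-coding transcript. Among them were *Rps3a1* with 127 CPM, *Fau*, a ubiquitin-like fusion, with 103 CPM, and *Rack1* with 77.8 CPM. The 14 elongation factors and other genes with TOP mRNAs had a median of 76.9 CPM but 41.2 CPM per kilobase. *Eef1a1*, which delivers aminoacyl-tRNA, led them with 624 CPM and 348 CPM per kilobase, in the range of the highest ribosomal protein genes.

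The 79 mitochondrial ribosomal protein genes all had reads and lay lower and closer together, with a median of 22.7 CPM (range, 2.99 to 69.0) and 16.5 CPM per kilobase. Together they had 25.1% as many reads as the 82 cytosolic genes. The 22 ribosome assembly factors had medians of 25.9 CPM and 9.19 CPM per kilobase, led by *Eif6*, which keeps free 60S subunits from joining, with 141 CPM. The 12 genes of RNA polymerase I transcription, which makes the rRNA, had 20.2 CPM and 9.96 CPM per kilobase, led by *Ubtf* with 112 CPM. The 7 host genes of small nucleolar RNAs had 5.67 CPM and 7.72 CPM per kilobase, from *Snhg12* listed at 0 to *Gas5*, whose noncoding RNA is also a TOP transcript, with 62.7 CPM.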

How the data were processed

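RNA of 9 samples of sorted, R848-stimulated pDCs was made into mRNA libraries and sequenced as 150 bp paired-end reads. The submitters' processing notes name HISAT2, StringTie and the builds mm8 and mm10, without roles, and the methods name DESeq2 for comparing genotypes. The counting tool, annotation and use of strand are not given in the sources used here. The authors deposited 1 normalized signal value per gene and named no unit for it. In the 1 library analysed, 100% of them were whole multiples of a step of 1.19 (tolerance, 0.001 read), so whole reads were recovered by division. The unit is thus inferred from the values. The listed gene length equalled the genomic span in 100% of genes and was not used.

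Levels were computed as CPM (value divided by the column total, times 1000000) with Wilson 95% intervals and a floor of 3 reads (0.0955 CPM). Of 52550 gene identifiers, 99.7% were in GENCODE M21, and 74 of 82 members had identical coordinates. Length was that of the principal transcript, with ties settled by curated RefSeq support and then the shorter. That tie rule and the coding length were chosen after seeing the data. Members and lists were chosen with earlier results of these data known. Named are the role lists, the 5 highest and lowest of each subunit, all genes over 4-fold from the median, and the paralog pairs. A few others were named after their values were seen, and some genes that the rule names are not reported here. Python 3.11.15, numpy 2.4.6, pandas 2.3.3, scipy 1.17.1, Biopython 1.88 and matplotlib 3.10.9 were used. Recovery of reads was tested on 3 simulated libraries of 52550 genes (100% of reads recovered). Those values were scaled counts by construction, so this checks the calculation and not whether the deposited values are scaled counts. The search for shared windows was tested on 20 simulated transcripts (100% agreeing).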

Additional observations from a re-analysis of the deposited data

How the results depend on the processing

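With 1 library there was no replicate to leave out. No paired analysis was possible because only 1 sample was analysed and no test was made. The share of reads on the genes was 0.803%. It became 0.859% with 8 genes listed as other-named ribosomal proteins and 0.793% without the paralogs. Without genes with over 50% of their windows shared it was 0.373%. The median of 89.2 CPM per kilobase became 94.5 without the paralogs and without genes under 10 reads, 68.3 without the mostly shared genes, 40.0 per kilobase of all exons, 75.7 as CPM and 149 per kilobase of coding sequence. The log2 difference of large minus small subunit genes, 0.09, turned to −0.0803 with the other-named genes, −1.09 without the mostly shared genes, −0.22 over all exons, −0.21 as CPM and −0.32 over coding sequence, and was 0.24 without the paralogs or genes under 10 reads and 0.21 without the 2 annotated pseudogenes. The cause was not tested. The SD of log2(level + 1) over genes, 1.89, was 1.89 with the other-named genes, 1.41 without the paralogs, 2.44 without the mostly shared genes, 1.495 without genes under 10 reads, 1.75 over all exons, 1.79 as CPM, 1.76 over coding sequence, 1.77 without the pseudogenes and 2.33 with a pseudocount of 0.1. The number of genes over 4-fold from the median, 15 of 82, ran from 10 of 80 over coding sequence to 17 of 90 with the other-named genes. Without the mostly shared genes it was 12 of 37, the largest share. The coding-length and pseudogene alternatives were chosen after seeing the data. At this depth, 95% intervals were within 5.92% of the level for every gene with over 1000 reads.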
